A study of Bos grunniens and Bos grunniens x Bos taurus with 12 samples.

Results

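ACE, the gene of angiotensin-converting enzyme, was followed through testes of yaks of 3 ages and of cattle–yaks. It is 1 of 20965 genes in the tables of the series and was found by its symbol, which belongs to a single gene (ENSBGRG00000015697). Of all genes, 13662 carry a symbol. The measurement is Ribo-seq, which counts mRNA fragments shielded by ribosomes and so reads out how much of an mRNA is being translated.

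Each group held 3 libraries, and each library was taken as 1 animal. The yaks were 6 months (juvenile), 18 months (puberty) and 4 years old (sexual maturity). Cattle–yaks, for which the labels also give 4 years, are hybrids of Jersey cattle bulls and Gannan yak cows, and their males are sterile. All animals came from 1 cooperative, and the labels name no introduced allele or agent in any group. The labels give castration as the source of every testis, whereas the methods of the study name euthanasia for the 4-year yaks, so the way of collection cannot be told apart from the group. Footprints of the hybrid were aligned to the yak genome, and a loss of cattle alleles in that step cannot be told apart from the hybrid either. Library totals were 25816963 to 37167651 counts at 6 months, 21309151 to 24542362 at 18 months, 16304058 to 17862516 in 4-year yaks and 38437889 to 52616039 in cattle–yak.

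ACE is a zinc metallopeptidase held on the outside of the cell membrane. It trims angiotensin I to angiotensin II, which acts on vessels, kidney and adrenal gland, and it breaks down bradykinin. Mammals make it in a pair of forms from the same gene. The somatic form, abundant on endothelial cells, has a tandem pair of catalytic domains. The germinal form is shorter, has one catalytic domain, and is made from a promoter inside the gene in male germ cells after meiosis. Mice without ACE have males of low fertility. The tables give 1 value per gene, so values of single forms were not analysed here, and no sequence of ACE was used.

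A library of the 18-month group stood apart before any gene was compared. Log2 CPM, the count relative to the TMM-scaled library total, was compared over the 16887 genes that passed a filter on low counts. Replicate 2 correlated with the 4-year libraries at r = 0.949 to 0.952 and with the other libraries of its own age at 0.770 and 0.815. Replicate 1 of that age was closest to the 6-month libraries, with r = 0.952 to 0.963, and replicate 3 lay at 0.908 to 0.930 from the 6-month and 0.922 to 0.930 from the cattle–yak libraries. These correlations run across genes, which are not independent replicates. Tests with the 18-month group are therefore given with and without replicate 2.

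The level of ACE was highest in the 4-year yaks. FPKM, the count relative to effective gene length and library total as calculated by the authors, was 22.01, 12.72 and 12.89 in the 6-month libraries. At 18 months it was 17.73 in replicate 1, 567.48 in replicate 2 and 10.17 in replicate 3. The 18-month group thus held a pair of libraries at the juvenile level and a single one far above it. At 4 years, FPKM was 1191.03, 1188.03 and 970.01. In cattle–yak it was 7.69, 5.52 and 7.35, the lowest of all groups, and each hybrid library lay below every yak library. Replicate 2 of 18 months exceeded replicates 1 and 3 of the same age 32-fold and 55.8-fold, and reached 50.8% of the 4-year mean.

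The means of FPKM were 1116 ± 127 (SD, n = 3) at 4 years, 198 ± 320 at 18 months, 15.9 ± 5.32 at 6 months and 6.85 ± 1.17 in cattle–yak. Among all genes of a library, ranked from the highest FPKM, ACE was number 82 to 113 in the 4-year yaks and number 223 in replicate 2 of 18 months. In the 6-month libraries its rank was 4018 to 6222, in the other 18-month libraries 5281 and 7560, and in cattle–yak 8593 to 9460. The counts behind these levels were 1255 to 1813 at 6 months, 1427, 26102 and 767 at 18 months, 33780 to 45492 in 4-year yaks and 736 to 1223 in cattle–yak, so ACE was well covered in every library.

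**Figure D1:**
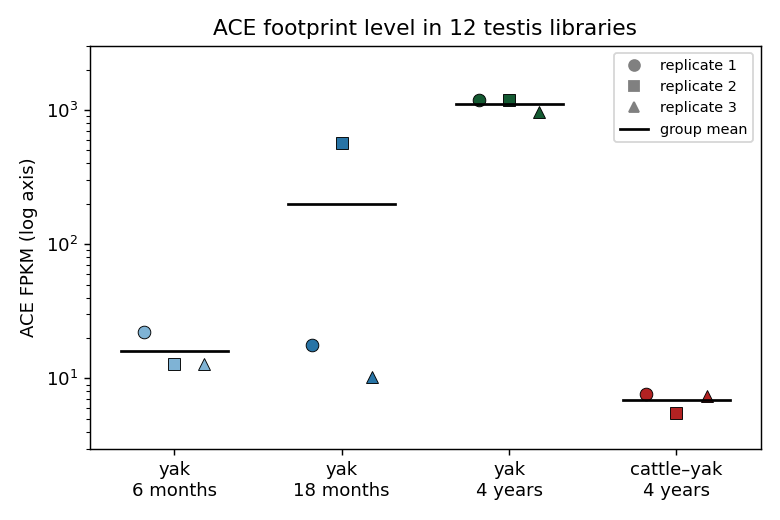
FPKM of ACE (log axis) in each library, by group, with replicates as symbols and the group mean as a line. The 4-year yaks lie between 970.01 and 1191.03, cattle–yak between 5.52 and 7.69, and replicate 2 of 18 months lies at 567.48 while the other libraries of that age lie at 17.73 and 10.17.

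From 6 months to 4 years, ACE rose. With edgeR's quasi-likelihood test on the counts, fitted on all genes with TMM scaling, the log2 fold change was 4.97 (SE 0.35, adjusted p = 2.60e-06), a 31.3-fold rise, and the groups did not overlap. A gene was called where its Benjamini-Hochberg adjusted p was below 0.05 and its log2 fold change was at least 1 in either direction. Of 16133 genes tested, 55.7% were called in this comparison and 31% were called higher and 24.7% lower at 4 years, so a call on its own does not set ACE apart. Its size was in the upper range, and 1338 genes, ACE included, had a log2 fold change as high. Leaving out each library in turn gave 4.79 to 5.38. Without TMM the value was 5.57, but the median of all genes then lay at 0.64, and relative to it ACE was at 4.93. The ratio of mean FPKM was larger, 70.3-fold or 6.14 in log2. FPKM is not scaled by TMM and also divides by the effective length of the gene in each library, which was shorter at 4 years.

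The steps on either side of 18 months could not be resolved. The log2 fold change was 2.65 (SE 1.28, edgeR adjusted p = 0.235) from 6 to 18 months, where the groups overlapped. From 18 months to 4 years it was 2.39 (SE 1.32, edgeR adjusted p = 0.220), although every 4-year library lay above every 18-month library in FPKM. In edgeR, 0.0672% of 14874 and 0.0371% of 16175 genes were called. DESeq2 called 12.1% and 20.4%, and a fit of all 12 libraries 15.7% and 20.6%. ACE was not among the calls of these tools, and DESeq2 gave it no adjusted p from 6 to 18 months. The size and direction depended on 1 library. Without replicate 2 of 18 months, edgeR called 0.504% and 44.6% of genes, and for ACE the first step was -0.44 (edgeR adjusted p = 0.615) and the next one 5.44 (edgeR adjusted p = 0.00012), which was called.

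In cattle–yak, ACE stood at the bottom of the order. Its low level against the 4-year yaks is what drew attention to the gene, so this difference is given as a description. The log2 fold change was -6.75 (SE 0.20), the 4-year yaks being 107-fold higher in TMM-scaled counts and 163-fold higher in mean FPKM. Of 16498 genes tested, 44% were called in this comparison, 27% as lower and 17.1% as higher in cattle–yak. A fall as deep as that of ACE was seen in 550 of these genes, ACE included. Leaving out single libraries gave -6.80 to -6.60.

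The hybrid was also compared with the younger yaks. Against the 6-month yaks, the log2 fold change was -1.76 (SE 0.28, edgeR adjusted p = 0.00104), a 3.39-fold lower level that was called, as were 37.8% of 15571 genes, with 19.7% called lower. Mean FPKM was 2.32-fold lower. With scaling by library size alone the log2 value was -1.19, where the median of all genes lay at 0.52, so that relative to the median gene ACE was at -1.71. With all 12 libraries in 1 fit, whose shared spread includes the 18-month group, the adjusted p was 0.184 and the call was lost. Against the 18-month yaks the difference was -4.31 (SE 1.36, edgeR adjusted p = 0.10) and not called, beside 5.8% of 15702 genes that were. Without replicate 2 of 18 months it was -1.31 (edgeR adjusted p = 0.0416) and called, beside 15.3% of genes. With all libraries it was also called by DESeq2 (-4.32, adjusted p = 0.0106) and in the fit of all 12 libraries (-4.33, adjusted p = 0.0238). The mean levels thus ran from 4 years through 18 months and 6 months to cattle–yak, where the place of 18 months above 6 months rests on replicate 2 and turns without it, and neighbours differed beyond their spread between 6 months and cattle–yak in this pairwise test. The neighbours 4 years and 18 months, and 18 months and 6 months, did not pass it.

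The effective length of ACE differed along with its level. RSEM, which the authors used to assign footprints to genes, takes for a gene the mean of the lengths of its annotated transcripts, each reduced for the read length and weighted by its estimated share. This length was recovered in bases from the count, the FPKM and the total of each library. At 6 months it was 3191, 3156 and 3170 bases. The 18-month libraries gave 3381 bases in replicate 1, 2159 bases in replicate 2 and 3073 bases in replicate 3. At 4 years the 3 libraries lay close together at 2142, 2144 and 2136 bases. Cattle–yak gave 3023, 3453 and 3260 bases. Replicate 2 of 18 months was again beside the 4-year yaks, and in all other libraries of younger yaks and hybrids ACE was longer, with 3023 bases as the lowest value. The median gene had an effective length between 1365 and 1369 bases in every library. Most genes did not shift, so the median gene cannot show whether the genes able to shift moved together in a library.

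Relative to the median gene, the count per FPKM of ACE was 2.32 ± 0.0125 (SD, n = 3) at 6 months, 2.10 ± 0.465 at 18 months, 1.57 ± 0.00458 in 4-year yaks and 2.37 ± 0.158 in cattle–yak. The mean was 1.48-fold higher at 6 months, 1.34-fold higher at 18 months and 1.52-fold higher in cattle–yak than at 4 years. The 4-year libraries did not overlap with any other group. Over the 3 yak ages, 0.677 of the variance lay between groups (exact permutation test, p = 0.0893, n = 3 per group). Without replicate 2 of 18 months this share was 0.978 (exact permutation test, p = 0.025), and without replicate 1 it was 0.792 (exact permutation test, p = 0.00357, the smallest possible). Over all 4 groups the share was 0.718 (exact permutation test, p = 0.0391), or 0.947 without replicate 2 of 18 months (exact permutation test, p = 0.0155), of which the difference between cattle–yak and 4-year yaks was already known. Leaving out any 6-month library, or replicate 2 or 3 of cattle–yak, raised this p to between 0.0603 and 0.0767. Each of the 3 pairs with the 4-year yaks gave p = 0.1 in a two-sided exact permutation test, the smallest that 3 libraries against 3 allow, and 0.2 after Benjamini-Hochberg adjustment over 6 pairs.

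**Figure D2:**
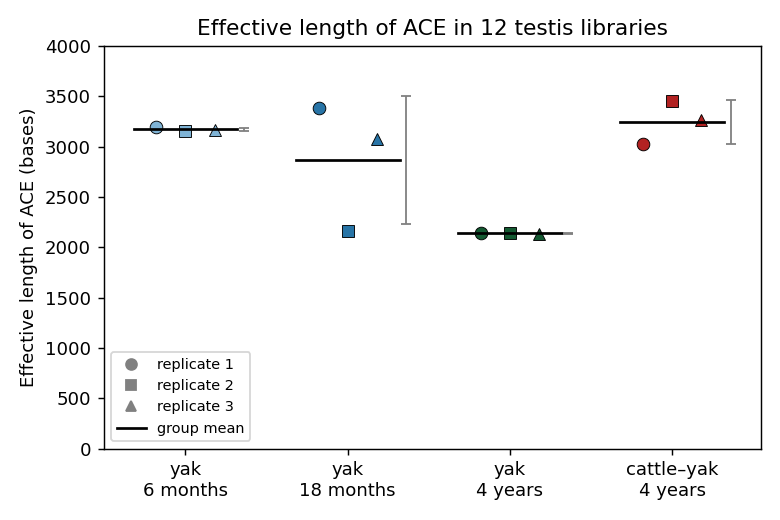
Effective length of ACE in bases in each library, by group, with group means as lines and SD as bars at the right of each group. The 4-year libraries lie at 2136 to 2144 bases and replicate 2 of 18 months at 2159, whereas all other libraries lie between 3023 and 3453.

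Shifts of this size were rare over all genes with enough counts. Of 8373 genes with at least 100 counts in every library, the median absolute log2 shift of the count per FPKM between cattle–yak and 4-year yaks was 0.0011, against 0.60 for ACE. A shift without overlap and at least as far as that of ACE was found in 20 genes, or 0.239%, ACE included. Between 4 years and 6 months, where ACE shifted by -0.57, such a shift was found in 32 genes, or 0.382%. Lack of overlap alone was common, with 20.7% and 21.3% of genes. A gene whose annotated transcripts do not differ in length cannot shift in this way, and such genes were not set apart. The percentages therefore do not tell how rare the shift of ACE is among genes able to shift.

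**Figure D3:**
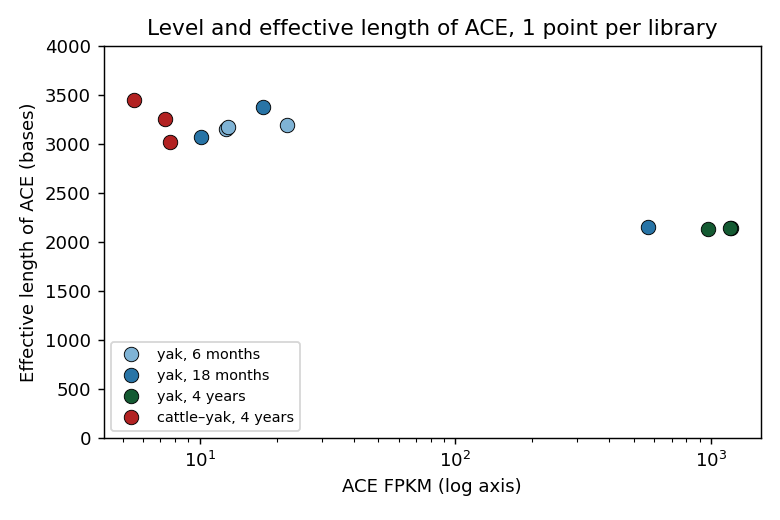
Effective length of ACE in bases against its FPKM (log axis), 1 point per library, coloured by group. The 4 libraries above 500 FPKM lie between 2136 and 2159 bases and the 8 libraries below 25 FPKM between 3023 and 3453, so the libraries form separate clusters and no correlation was computed.

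The level of ACE was set beside markers of the cell types that a testis holds. In bulk tissue, fewer cells of a type and less RNA per cell cannot be told apart. Markers of round spermatids, the first haploid germ cells, summed to 0.34 to 0.87 FPKM at 6 months over 6 of 10 listed genes, and 3 of the 6 genes were at 0 in each 6-month library. At 18 months the sum was 1.36, 765 and 4.91, at 4 years 1332 to 1978, and in cattle–yak 3.06 to 7.77. The libraries with high ACE were those with high spermatid markers. ACE FPKM divided by this sum was 0.601 to 0.728 at 4 years and 0.741 in replicate 2 of 18 months. Elsewhere it was above that range, at 0.99 to 2.40 in cattle–yak, 13.0 and 2.07 in the other 18-month libraries and 22.3 to 37.9 at 6 months. All 6 genes were called higher at 4 years than at 6 months, beside 31% of all genes, and lower in cattle–yak than at 4 years, beside 27%. Between cattle–yak and 6 months only 2 of the 6 passed the filter on low counts. Both were called higher in cattle–yak, where ACE was lower, beside 18.1% of all genes called higher. Most of the 6 thus entered through their 4-year counts, which largely set the direction of these calls in advance.

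Later and earlier germ cells were read in the same way. Markers of elongating spermatids, which pack their DNA with protamines, summed to 9.73 to 17.7 FPKM at 6 months, 15.0, 7308 and 33.7 at 18 months, 9029 to 12263 in 4-year yaks and 77.9 to 162 in cattle–yak. ACE FPKM divided by this sum was 0.0475, 0.0709 and 0.0915 in cattle–yak, so it was not above the 4-year values of 0.0791 to 0.132. It was 0.0776 in replicate 2 of 18 months, 1.18 and 0.302 in the other 18-month libraries and 0.719 to 2.26 at 6 months. The sum of spermatocyte markers, of cells in meiosis, varied less, from 127 to 188 FPKM at 6 months through 185, 688 and 256 at 18 months to 854 to 975 at 4 years. In cattle–yak the sum was 334 to 489 FPKM, between the 6-month and the 4-year libraries. A sum follows its most abundant genes, and gene by gene the change was larger. Over 9 spermatocyte genes, the median log2 fold change from 6 months to 4 years was 5.33, with 8 called higher beside 31% of all genes. In cattle–yak it was 4.01 against 6 months, with 8 called higher beside 18.1%. Against 4 years it was -1.07, with 5 called lower beside 27%.

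Endothelial markers moved the other way. Their sum over 10 genes was 319, 198 and 192 FPKM at 6 months, 273, 103 and 120 at 18 months, 33.3, 38.0 and 30.1 in 4-year yaks and 43.3, 60.0 and 40.1 in cattle–yak. ACE FPKM was 0.0641 to 0.0690 of this sum at 6 months and 0.0649 and 0.0850 in replicates 1 and 3 of 18 months, a narrow range over 5 libraries. It was 5.49 times the sum in replicate 2 of 18 months and 31.3 to 35.8 times at 4 years. In cattle–yak it was 0.178, 0.0921 and 0.184 of the sum, above all 6-month values. Between cattle–yak and 6 months, 8 of 10 endothelial genes were called lower, as ACE was, beside 19.7% of all genes. This direction was not particular to endothelial markers. Also called lower were 6 of 7 macrophage, 2 of 3 Leydig and 2 of 6 Sertoli cell genes, with none called higher. Of 8 spermatogonial genes, 5 were called higher and 2 lower. Of 5 genes of peritubular myoid cells, 3 were called higher and none lower, beside 18.1% of all genes called higher. Epididymal epithelium also makes ACE, and 4 of its 9 listed markers were in the tables, with a sum of 0.19 to 1.09 FPKM in every library. Markers of Leydig cells (3 genes) summed to 1689 to 2654 FPKM at 6 months, 411 to 1014 at 18 months, 86.3 to 218 in 4-year yaks and 672 to 1134 in cattle–yak. The part of these cell types in the level and length of ACE was not tested.

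**Figure D4:**
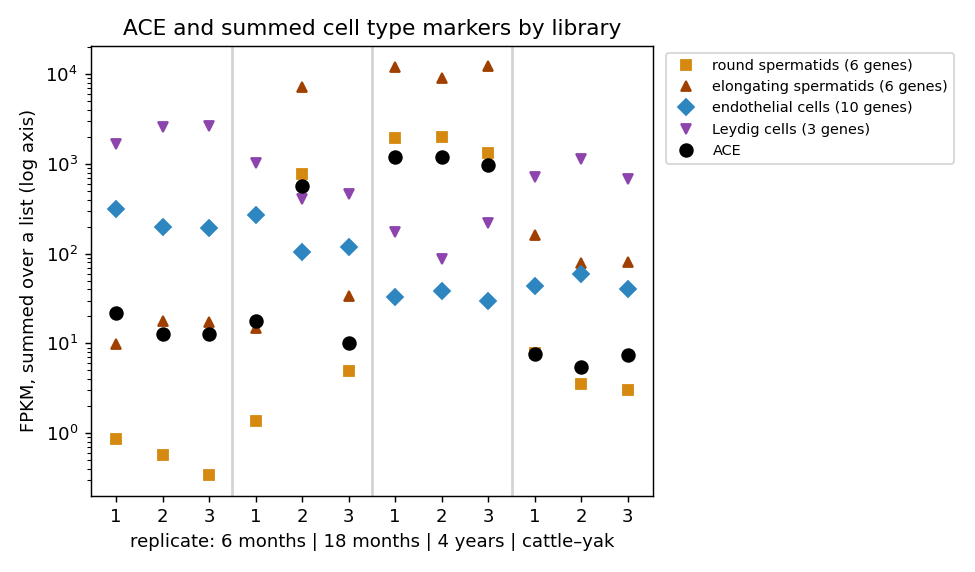
FPKM of ACE and FPKM summed over markers of round spermatids, elongating spermatids, endothelial cells and Leydig cells (log axis) for the 3 replicates of each group. ACE and both spermatid lists are high in the 4-year yaks and in replicate 2 of 18 months, and the endothelial sum falls from 192 to 319 at 6 months to 30.1 to 38.0 at 4 years.

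Other genes of the angiotensin and kinin pathway did not share the course of ACE as a group. The list held 36 symbols, of which 25 were in the tables and 19 passed the filter on low counts. Between 6 months and 4 years, 3 were called higher and 8 lower, with a median log2 fold change of -0.36 against 0.08 over all genes and with the background of 55.7% called. Between 4-year yaks and cattle–yak, 3 were called higher and 2 lower in the hybrid, with a median of 0.26 against 0.00 over all genes and a background of 44%. None was called in edgeR between 6 and 18 months, where 5 had an unadjusted p below 0.05 and DESeq2 called 4. Likewise none was called between 18 months and 4 years, where 7 had an unadjusted p below 0.05 and DESeq2 called 3. These counts without replicate 2 of 18 months were 1 and 9 of 19, beside 0.504% and 44.6% of all genes.

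At the head of the pathway stands AGT, angiotensinogen, the precursor from which the angiotensins are cut. It had 1.49 to 4.95 FPKM in all libraries and was not called between 6 months and 4 years or between 4-year yaks and cattle–yak. AGTR1, the main receptor of angiotensin II, ran against ACE. Its FPKM was 6.87, 6.62 and 7.11 at 6 months, 2.19, 0.67 and 2.02 at 18 months, 0.61, 0.33 and 0.41 in 4-year yaks and 0.99, 1.61 and 1.05 in cattle–yak. The fall with age was -4.48 in log2 (SE 0.33, edgeR adjusted p = 3.42e-06), and the hybrid lay above the 4-year yaks by 1.42 (SE 0.43, edgeR adjusted p = 0.0191). The 2 other receptor genes of this arm, AGTR2 and MAS1, and the bradykinin receptors BDKRB1 and BDKRB2 did not pass the filter on low counts in either of these comparisons.

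Among the other peptidases of the list, CPA3, a carboxypeptidase of mast cells, was called higher at 4 years (log2 3.32, SE 0.80) and lower in cattle–yak (-3.94, SE 0.93). Its level never exceeded 2.20 FPKM, and it was listed at 0 in 3 libraries. It passed the filter on low counts only in comparisons with the 4-year yaks. PREP, which cleaves after proline, fell with age by 1.0 in log2 (SE 0.19) and was 1.04 higher in cattle–yak than at 4 years (SE 0.13). XPNPEP1, an aminopeptidase that opens bradykinin, was 1.40 higher in the hybrid (SE 0.12). Further calls between 6 months and 4 years, named after their values were seen, included CPN1 among the genes that rose and LNPEP, MME, CTSA, CPN2, XPNPEP2 and ECE1 among those that fell. MME, or neprilysin, was at 4.97 to 9.94 FPKM at 6 months and 0.84 to 1.61 at 4 years.

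**Figure D5:**
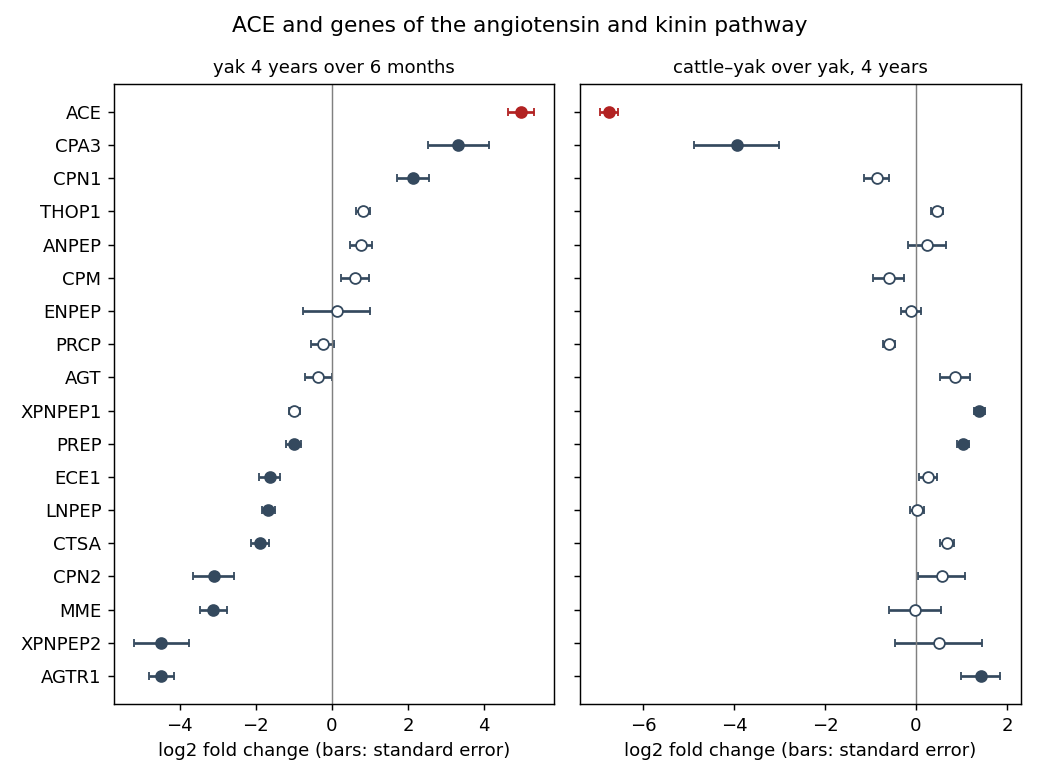
Log2 fold changes of TMM-scaled counts with SE as bars for ACE (red) and 17 tested genes of the angiotensin and kinin pathway, from 6 months to 4 years in yak (left) and in cattle–yak over 4-year yak (right), filled where adjusted p was below 0.05 and the absolute log2 fold change at least 1. ACE has the largest change in size among the genes plotted on both sides, with 4.97 and -6.75, and CPA3 follows its direction.

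Germinal ACE sits on the sperm surface with proteins that are matured by dedicated chaperones in the spermatid, and a list of such genes was read beside it. Of 23 symbols, 13 were in the tables and passed the filter in both main comparisons. Between cattle–yak and 6 months 10 passed it. Some of the 13 thus entered through their 4-year counts, which largely set the direction of their calls in advance. Between 6 months and 4 years, 10 were called higher and 1, the sulphotransferase TPST2, lower, beside 31% and 24.7% of all genes. The median log2 fold change was 9.42 against 0.08 over all genes, or 9.19 with 2 genes without any count at 6 months set to a bound of 3 counts per library. In cattle–yak, 10 were called lower than at 4 years and none higher, beside 27% and 17.1% of all genes. The median was -4.25 against 0.00 over all genes. Against 6 months, where ACE was lower in cattle–yak, 5 of 10 were called higher and 1 lower, beside 18.1% and 19.7% of all genes. The median there was 2.63 against -0.02 over all genes. With the 18-month group, none of 8 was called against 6 months in edgeR (4 at an unadjusted p below 0.05, 0 in DESeq2, which gave 4 of them an adjusted p) and none of 13 against 4 years (2 at an unadjusted p below 0.05, 1 in DESeq2). When replicate 2 of 18 months was left out, 0 of 8 and 11 of 13 were called, while calls over all genes went to 0.504% and 44.6%.

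The 6 genes of that list with the highest levels were then read library by library. CLGN, the chaperone calmegin, had FPKM of 127.8 to 260.4 at 6 months, 305.78, 1551.14 and 303.46 at 18 months, 2320 to 2990 in 4-year yaks and 241.1 to 288.05 in cattle–yak, where the log2 fold change against 4 years was -3.27 (SE 0.16). CALR3, a calreticulin of the testis, had 2.34 to 2.57, then 3.37, 1248.23 and 7.85, then 2296 to 2796, and 31.58 to 67.64 FPKM in the same order. ADAM2, a subunit of fertilin on the sperm surface, went from 0.00 to 0.26 at 6 months, through 0.07, 648.76 and 1.52 at 18 months, to 952.27 to 1284.50 FPKM at 4 years and had 5.2 to 23.36 in cattle–yak. Every one of these 3 genes showed replicate 2 of 18 months far above the other libraries of its age, as ACE did. PRSS37, a serine protease homologue, PDILT, a disulphide isomerase homologue of the testis, and HSPA4L, a heat shock protein, were also among the 6 highest and were called in both main comparisons.

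Regulators of transcription in late germ cells were read next. CREM, an activator of haploid germ cell genes, its coactivator FHL5, the TBP relative TBPL1, SOX30 and RFX2 were all called higher at 4 years than at 6 months, 5 of 5 beside 31% of all genes, and lower in cattle–yak than at 4 years, 5 of 5 beside 27%. Against 6 months, where ACE was lower in cattle–yak, SOX30 (log2 2.5) and RFX2 (log2 1.99) were called higher among 4 tested and none lower, beside 18.1% of all genes called higher. The regulator not tested there passed the filter elsewhere through its 4-year counts, which largely set the direction of its calls in advance. FPKM of CREM was 0.54, 1.23 and 2.27 at 6 months, 3.31, 23.77 and 2.42 at 18 months, 55.94, 55.12 and 37.07 in 4-year yaks and 2.22, 4.48 and 1.33 in cattle–yak. FHL5 had 0.04 to 0.55 FPKM at 6 months, 59.04 to 78.63 in 4-year yaks and 0.00 to 0.41 in cattle–yak, where the log2 fold change against 4 years was -8.56 (SE 0.65). The smallest difference was that of TBPL1, with -1.39 (SE 0.15). In edgeR, none was called from 6 to 18 months (4 tested, 4 at an unadjusted p below 0.05). Nor was any from 18 months to 4 years (5 tested, 0 at an unadjusted p below 0.05). DESeq2 gave only 1 regulator an adjusted p in the earlier step and called 0. In the later step it called 1 of 5, beside 20.4% of all genes. The fit of all 12 libraries called 3 of 5 higher from 6 to 18 months, beside 10.8% of all genes. It called 0 of 5 from 18 months to 4 years. Without replicate 2 of 18 months, an alternative for this list that was added after the data were seen, 0 of 4 and 5 of 5 were called, beside 0.504% and 44.6% of all genes.

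The genes whose profile was nearest to that of ACE were ranked among 12070 genes by the root mean square difference of log2 CPM over the 12 libraries, after each gene was centred on its own mean. The nearest was SAMD4A, an RNA-binding translational repressor, with a difference of 0.279 and r = 0.995. It was followed by AGPAT4, an acyltransferase of phospholipid synthesis (0.366), MFSD6L (0.390), TMEM190 (0.438), the mitochondrial carrier SLC25A41 (0.479) and the deubiquitinase OTUB2 (0.502). In the libraries without high ACE, AGPAT4 had 0.15 to 0.77, MFSD6L 0.07 to 0.60 and SLC25A41 0.11 to 0.30 FPKM. The nearness of these genes to ACE in those libraries thus rests on values near the floor. An r above 0.95 with ACE was shared by 392 genes and above 0.99 by 12. The libraries fall into separate clusters, those with and those without high ACE, so r is a description. The same 6 genes were nearest when replicate 2 of 18 months was left out, an alternative added after the data were seen, whereas log2(FPKM + 1), which depends on the level, kept only TMEM190.

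A second gene described as angiotensin-converting enzyme-like (ENSBGRG00000014745) has no symbol, and it was picked after its values were seen. It held 11, 19 and 18 counts at 6 months, 8, 997 and 15 at 18 months, 1569, 2107 and 1333 in 4-year yaks and 64, 36 and 23 in cattle–yak. These counts were 0.561% to 5.23% of those of ACE in the same library. It moved in the direction of ACE, with a log2 fold change of 6.98 (SE 0.23) from 6 months to 4 years, against 4.97 for ACE, and of -6.67 (SE 0.30) in cattle–yak against 4 years, against -6.75. The difference between the genes was not tested. Between cattle–yak and 6 months it differed by 0.32 (SE 0.47, edgeR adjusted p = 0.579), where ACE was lower. Footprints of related genes can be shared out between them by RSEM, so the split between these genes is uncertain.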

How the data were processed

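Reads were trimmed by the authors (fastp), freed of rRNA (Bowtie2) and of further small RNA (BLAST), restricted to footprint length and aligned with STAR to the yak genome (BosGru 3.0). The deposited expected counts were estimated by the authors with RSEM on ORFs and rounded to whole numbers, without normalization. The deposited FPKM divides these counts by effective length and library total. The authors' fold change, p-value and FDR columns and the tables of group means were not used.

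Groups came from the labels. Each comparison used its own 6 libraries in edgeR 4.0.16 (R 4.3.3), with filterByExpr, TMM and the quasi-likelihood test. SE was approximated as the size of the log2 fold change over the square root of F. Alternatives used DESeq2 1.42.0 and limma 3.58.1, other scalings, filters and reference genes, all 12 libraries in 1 fit, a block for the replicate number, and removal of single libraries. The main reference for the count per FPKM was the 12542 genes with at least 10 counts in every library. Summaries used Python 3.11.15, pandas 2.3.3, numpy 2.4.6, scipy 1.17.1 and matplotlib 3.10.9. The edgeR and permutation steps were tested on simulated data.

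ACE, the lists and the markers were chosen with earlier results of these data known. Genes were named by rule, namely pathway genes called in at least 1 of the 3 comparisons of consecutive groups, the 6 sperm surface genes of highest level, the 5 regulators and the 6 genes nearest to ACE. Genes outside the rule are said to be so, and 2 pathway genes, included in the counts, are not reported here by name. With 1 library per animal, p-values cover animals and library preparation together. No genome positions or sequences of ACE were used.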

Additional observations from a re-analysis of the deposited data

How the results depend on the processing

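The log2 fold change of ACE kept its direction and its side of the threshold under all 15 alternatives between 6 months and 4 years and between 4-year yaks and cattle–yak. It did so under 14 of 15 from 18 months to 4 years and for cattle–yak against 6 months, and under 12 of 15 for cattle–yak against 18 months. Between 6 and 18 months it did so under 13 of 14, and DESeq2 gave no adjusted p for ACE there. Without replicate 2 of 18 months, ACE changed sign between 6 and 18 months (-0.44), and was called from 18 months to 4 years (5.44) and in cattle–yak against 18 months (-1.31). The last was also called by DESeq2 (-4.32) and with all 12 libraries in 1 fit (-4.33). In that fit ACE in cattle–yak against 6 months was at -1.75 and not called. Ranges with single libraries left out were -0.44 to 3.19, 1.84 to 5.44, 4.79 to 5.38, -6.80 to -6.60, -4.84 to -1.31 and -1.94 to -1.34 for 18 months over 6 months, 4 years over 18 months, 4 years over 6 months, and cattle–yak over 4 years, 18 months and 6 months.

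Among pathway genes, those called between 6 and 18 months were 0 in the main test, 4 with DESeq2, 1 with scaling by library size, 1 with the upper quartile, 3 with all 12 libraries, 1 and 2 with limma on log2(FPKM + 1) and log2(FPKM + 0.1), and 0 to 7 with single libraries left out. From 18 months to 4 years they were 3 with DESeq2, 3 with all 12 libraries and 0 to 9 with libraries left out. In cattle–yak against 4 years they were 5 in the main test, 7 with DESeq2, 7 without filter, 2 with limma on log2(FPKM + 1) and 4 to 6 with libraries left out. Sperm surface genes called between 6 and 18 months were 6 with all 12 libraries and 0 to 6 with libraries left out, and from 18 months to 4 years 1 with DESeq2, 1 with all 12 libraries and 0 to 11 with libraries left out. In cattle–yak against 4 years they were 10 in the main test, 9 with all 12 libraries, 11 with limma and 10 to 11 with libraries left out. With libraries left out between 6 and 18 months, the 7 and the 6 were reached without replicate 1 of 18 months. From 18 months to 4 years, the 9 and the 11 were reached without replicate 2 of 18 months.

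Over all genes, calls between 6 and 18 months were 10 in the main test, 1879 with DESeq2, 153 with library size, 130 with the upper quartile, 3 without filter, 2655 with all 12 libraries, 170 and 434 with limma, and 0 to 2593 with libraries left out. From 18 months to 4 years 6 became 3279, 3486 with all 12 libraries, 73 and 52 with limma, and 0 to 7310. In cattle–yak against 18 months 910 became 2433 with DESeq2, 599 without filter, 2613 with all 12 libraries, and 0 to 2464. The cause was not tested.

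Same-numbered libraries of different groups deviated together, at a correlation above 0.1, in 1 of 18 pairs (correlations of -0.33 to 0.16). Of the 18, 4 correlated best with their own number, so no pairing by number was seen. Deviations from a mean of 3 libraries are too few to exclude a pairing. With the replicate block, ACE was at 0.71, 4.22, 5.04, -6.75, -2.45 and -1.69 in the order above and no call of ACE changed, 1 pathway gene was called between 6 and 18 months, and over all genes 538, 0 and 1 were called in the comparisons with the 18-month group.

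The share of variance of the count per FPKM between groups was 0.657 to 0.947 over 4 groups and 0.615 to 0.978 over 3 ages with libraries left out, and other reference genes changed no call. Ratios of group means over 4 years were 1.48 to 1.49 at 6 months, 1.22 to 1.51 at 18 months and 1.47 to 1.57 in cattle–yak. Of the 6 genes nearest to ACE, 1 was shared with log2(FPKM + 1), 3 with the 9 yak libraries alone and 2 with Pearson correlation.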

Other observations

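Other genes also had a count per FPKM that moved as far as that of ACE without overlap. Most genes did not move, but genes unable to move were not set apart. Between 4-year yaks and cattle–yak, 8 of the 20 had a longer effective length in the hybrid and 12 a shorter one, and 18 had a symbol. The following were picked after their values were seen and carry no test. PSD3, an exchange factor for small GTPases, had 2856 to 3110 bases at 6 months, 1274 to 1303 in 4-year yaks and 2976 to 3090 in cattle–yak. At 18 months it had 3044, 1303 and 2869 bases, so that replicate 2 again lay with the 4-year yaks. The centrosomal gene CEP112 had 2223 to 2664 bases at 6 months, 2287, 1319 and 2622 at 18 months, 1089 to 1202 in 4-year yaks and 2308 to 2768 in cattle–yak. CAST, the calpain inhibitor calpastatin, had 2085 to 2140 bases at 6 months, 2130, 1539 and 2147 at 18 months, 1380 to 1400 in 4-year yaks and 2095 to 2147 in cattle–yak. ABCC5, a membrane transporter, ran the other way, with 993 to 1136 bases at 6 months, 1091, 2724 and 915.5 at 18 months, 3763 to 4072 in 4-year yaks and 1386 to 1625 in cattle–yak.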
